A study of Mus musculus with 22 samples.

Results

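The 11 genes described here were silent in mouse embryonic stem (ES) cells given solvent and were expressed, in each of 3 genotypes, after GSK-3484862. They were chosen from the measured values. A gene had to average at most 0.15 CPM (its count divided by the library's total count, times 1000000) with DMSO in each of the genotypes KO22, N22 and WT, and at least 1.5 CPM with GSK-3484862 in each of them. Symbols starting with Rhox, Xlr, Hox or Pcdh, and the genes Fkbp6, Meg3, Rian and Mirg, were left aside. Of 47729 genes in the tables, 28610 (59.94%) met the DMSO limit in all 3 genotypes. Of these, 26870 (93.92%) also stayed at or under 0.15 CPM in all 3 genotypes with GSK-3484862, and 50 reached 1.5 CPM in at least 1 genotype. They did so in 1 genotype for 27 genes, in 2 genotypes for 9 genes and in all 3 for 14 genes. Of the 14, Xlr4a, Xlr4b and Xlr4c were left aside by symbol, and the other 11 genes are 0.0384% of the silent ones.

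The series asks whether duplication of the Dux gene cluster matters for switching on genes of the 2-cell embryo, in untreated ES cells and in cells given a compound meant to lower DNA methylation. The treated set has 2 RNA sequencing libraries for each of 6 groups, KO22, N22 and WT cells with GSK-3484862 and the same cells with its solvent DMSO, both for 3 days. KO22 (titled Dux-KO22, Dux knockout) and N22 (titled Dux-N22, read here as 1 Dux copy) were made with CRISPR-Cas9 and are taken to be 1 clone each, and the effects of genotype and of clone cannot be told apart. The untreated set has 3 Dux-KO libraries (clones 15, 22 and 52), 4 Dux n=1 libraries (clones 17, 22, 31 and 40) and 3 libraries of E14, a mouse ES cell line. All cells were grown in serum with LIF, a cytokine that keeps ES cells undifferentiated. The labels give the dose as 1 uM in one place and 2 uM in another, so the dose is uncertain. As no title names a culture, day or batch, the p-values here rest on the spread between libraries alone, and that spread may be technical.

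GSK-3484862 degrades DNMT1, the enzyme that copies DNA methylation onto the new strand when cells divide. Methylated promoters with many CpG sites are usually silent, and the genes best known to be held silent in this way are germ cell genes and the methylated copy of imprinted genes, which are expressed from the copy of 1 parent. Genes of differentiated tissues are mostly silent in ES cells for want of the factors that drive them, and many of them have promoters with few CpG sites. RNA, not methylation, was measured here.

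The targeted gene was looked at first. Duxf3 (ENSMUSG00000075046, the annotated Dux gene) had 0 and 0 counts in KO22, 13 and 11 in N22 and 19 and 18 in WT libraries with GSK-3484862, against 0 and 0 in KO22, 3 and 0 in N22 and 1 and 1 in WT libraries with DMSO. In the untreated set the library labelled Dux-KO 22 had 5 Duxf3 counts, the most of the 10 libraries, and E14 libraries had 0 or 1, so Duxf3 does not separate the untreated groups. Library totals were 16759053 to 19063967 counts with GSK-3484862, 17973354 to 19427794 with DMSO and 15803194 to 19384356 untreated, at which 3 counts are 0.15 to 0.19 CPM. The share of mitochondrial counts was higher with GSK-3484862 (2.66% to 3.20%) than with DMSO (1.66% to 2.39%), and its part in the results was not tested. All 10 defining ES cell markers were expressed in every library, the lowest at 149 CPM, but 9 of them in KO22, 10 in N22 and 9 in WT were lower with GSK-3484862 (edgeR) and none was higher. Their median log2 changes were -0.32, -0.38 and -0.57, and they summed to 5187 to 5315 CPM with GSK-3484862 against 6613 to 6993 CPM with DMSO. The part of this fall in the results was not tested. In bulk RNA, fewer expressing cells and less RNA per cell cannot be told apart, so a low CPM does not say how many cells expressed a gene.

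By annotation the 11 genes are 6 protein-coding genes (Mgl2, Cyp4a12b, Akr1c18, Shisa6, Asz1 and CAAA01147332.1), the constant segment of a T-cell receptor (Tcrg-C1), the imprinted noncoding RNA Peg13, the lincRNA Gm40457 and the processed pseudogenes Gm5702 and Gm5070. They lie on 8 chromosomes and 1 unplaced scaffold, with chromosomes 11 and 13 holding 2 each. None lies on the X chromosome, which holds 1932 (6.75%) of the silent genes, and the Xlr4 genes left aside by symbol are X-linked. Just inside the silent limit were Gm40457 (0.137 CPM in KO22), Gm5702 (0.107 CPM in N22) and Peg13 (0.103 CPM in WT), and just outside it 1700013H16Rik (0.155 CPM), 4930550L24Rik (0.155 CPM) and Ptgs2 (0.157 CPM). Just inside the level asked for with GSK-3484862 were Asz1 (1.501 CPM), CAAA01147332.1 (1.56 CPM) and Gm5070 (1.59 CPM), and just outside it Gm38246 (1.42 CPM), 4930558C23Rik (1.39 CPM) and Cyp2c55 (1.29 CPM), all of them means of WT.

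Promoter windows of RefSeq (GRCm38.p6, 250 bases before to 50 after the annotated start) were found for 4 of the 11 genes, which is partial coverage. Windows of 3 of them are shown because they span the range of CpG content, from that of a germ cell gene to those of tissue genes. CpG sites are in capitals, and each runs 5′ to 3′ on the gene's strand. Asz1 is at chr6:18109012-18109311 on the minus strand, Mgl2 at chr11:70130107-70130406 on the plus strand and Akr1c18 at chr13:4150597-4150896 on the minus strand.
Asz1: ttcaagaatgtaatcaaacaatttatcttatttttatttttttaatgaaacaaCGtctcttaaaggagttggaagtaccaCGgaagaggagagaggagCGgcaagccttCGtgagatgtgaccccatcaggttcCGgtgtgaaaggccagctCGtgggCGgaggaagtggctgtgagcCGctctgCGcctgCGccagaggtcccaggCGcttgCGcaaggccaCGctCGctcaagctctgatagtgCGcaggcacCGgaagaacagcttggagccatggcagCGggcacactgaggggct
Mgl2: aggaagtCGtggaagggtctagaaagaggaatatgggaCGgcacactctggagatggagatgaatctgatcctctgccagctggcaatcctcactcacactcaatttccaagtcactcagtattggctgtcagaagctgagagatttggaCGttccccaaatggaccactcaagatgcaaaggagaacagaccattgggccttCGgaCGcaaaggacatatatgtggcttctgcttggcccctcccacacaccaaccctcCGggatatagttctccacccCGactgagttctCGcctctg
Akr1c18: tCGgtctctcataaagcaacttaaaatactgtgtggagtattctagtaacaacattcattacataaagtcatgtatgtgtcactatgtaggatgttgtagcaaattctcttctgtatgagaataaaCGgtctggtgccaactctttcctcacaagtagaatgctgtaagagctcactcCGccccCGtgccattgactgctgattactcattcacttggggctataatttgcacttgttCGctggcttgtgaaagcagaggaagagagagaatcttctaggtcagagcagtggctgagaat
The Asz1 window holds 17 CpG sites, with an observed to expected ratio of 0.783. Mgl2 has 8 (ratio 0.396), and Akr1c18 and the lincRNA Gm40457 have 5 each (ratios 0.373 and 0.252). The RefSeq start of Gm40457 lies 340 bases from the start in the deposited annotation, so its window is uncertain. Among silent genes with a window, the median was 3 CpG sites, and 92.01% had fewer than Asz1, 80.81% fewer than Mgl2 and 66.83% fewer than the other 2 genes. Windows of relatives and neighbours described below held 2 sites (Akr1c12 and Akr1c13), 1 (Akr1c21), 0 (Akr1cl), 3 (4930558C23Rik) and 24 (Hormad1). Genes tested for expression had a median of 20, and 38.45% of them had fewer than Asz1. The E-box CACGTG was in 0 of the 4 windows and in 4.1% of the windows of silent genes and 7.81% of those of all genes. The motif TCCCGC, or GCGGGA on the other strand, was in 0 of the 4, in 7.2% of the windows of silent genes and in 24.57% of all windows.

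**Figure D1:**
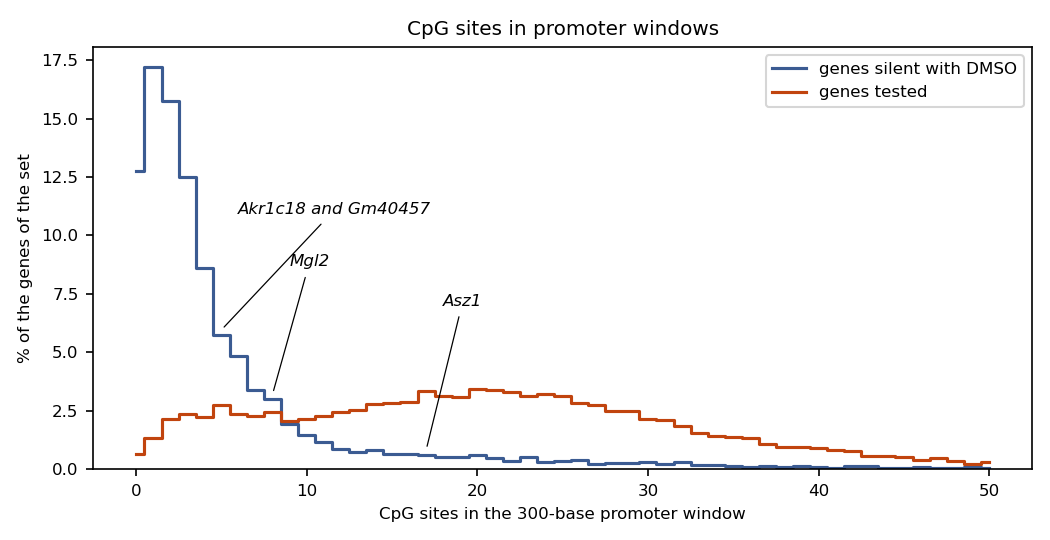
CpG sites per 300-base promoter window (x axis) against the percentage of genes (y axis), for genes silent with DMSO (blue line) and genes tested for expression (red line). Akr1c18 and Gm40457 lie at 5 sites, Mgl2 at 8 and Asz1 at 17, all above the median of the silent genes (3). Windows were found for these 4 of the 11 genes only.

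Imprinted and germline genes come first. Peg13 (chromosome 15, 72805600 to 72810324, minus strand) is a noncoding RNA within an intron of Trappc9, expressed from the paternal copy in mouse. It had 6.82 and 7.66 CPM in KO22, 8.18 and 7.03 CPM in N22 and 7.42 and 7.06 CPM in WT libraries with GSK-3484862, against no counts in the 4 KO22 and N22 DMSO libraries and 1 and 3 counts in the WT DMSO libraries. The 6 treated libraries were close together, and the genotypes overlapped. Over all libraries this was 803 counts with GSK-3484862 against 4 with DMSO, a ratio of 208 (95% interval of counting error 80.8 to 764). Peg13 had the highest CPM of the 11, but with 4725 bases of exon it came to 1.56 CPM per kb, the 33.26 percentile of tested genes.

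Trappc9, the host gene of Peg13, was not called higher in any genotype. Its level was 21.8 CPM in KO22 with GSK-3484862 against 23.3 CPM with DMSO, 24.1 against 28.4 CPM in N22 and 24.3 against 35.3 CPM in WT. The log2 changes were -0.11 ± 0.09 (SE, adjusted p 0.331) in KO22, -0.28 ± 0.09 (adjusted p 0.0043) in N22 and -0.60 ± 0.08 (adjusted p 4.67e-09) in WT, by edgeR's quasi-likelihood test. Kcnk9, the maternally expressed gene of the locus, had 1 count in the 6 GSK-3484862 libraries and 0 in the 6 DMSO libraries.

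The imprinted list holds 53 genes found in the tables, of which 47 others than Peg13 were tested. With GSK-3484862, 31 were higher and 5 lower in KO22, 31 higher and 7 lower in N22, and 28 higher and 9 lower in WT, and their median log2 changes were 0.61, 0.62 and 0.62. Over all 16641 genes tested, 24.8% were higher in KO22, 26.9% in N22 and 28.7% in WT, 21.2%, 26.0% and 28.1% were lower, and the medians were 0.004, 0.002 and 0.003. Calls in either direction took 46.0%, 53.0% and 56.8%. Mest, a paternally expressed gene, reached 321 CPM in KO22, 206 in N22 and 203 in WT, against 1.75, 1.02 and 6.54 CPM with DMSO. H19, a maternally expressed noncoding RNA, reached 25.3, 38.4 and 71.1 CPM in KO22, N22 and WT, against 0.157, 0.106 and 1.69 CPM with DMSO. Rtl1, a paternally expressed gene with a placental role, had 3.96, 3.77 and 5.22 CPM with GSK-3484862, against 0 counts in KO22 and N22 and 0.259 CPM in WT with DMSO, above the silent limit. These 3 genes were higher in each genotype (adjusted p at most 7.78e-15, edgeR). Rtl1 could pass the filter on low counts only through libraries with GSK-3484862, so nothing is read from its calls. The same holds for Nap1l5, another gene of the list, with at most 2 counts in any DMSO group. Both are among the genes counted as higher above. Phlda2, a maternally expressed growth regulator, fell by 1.199, 1.29 and 1.38 on the log2 scale in KO22, N22 and WT.

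Asz1 (chromosome 6, 18050964 to 18109061, minus strand) encodes a germ cell protein of mitochondria that is needed for piRNAs, the small RNAs that silence transposons in the testis. It had 2.38 and 2.20 CPM in KO22, 1.55 and 1.64 CPM in N22 and 1.32 and 1.68 CPM in WT libraries with GSK-3484862, against 2 counts in KO22, 0 in N22 and 1 in WT with DMSO. KO22 was above both other genotypes without overlap, but neither difference passed edgeR's test (adjusted p 0.255 against WT and 0.342 against N22). In these comparisons, groups did not overlap in 58.7% and 59.5% of all genes tested. The ratio of Asz1 over all libraries was 68.0 (interval 22.9 to 332). Its neighbours Wnt2 and Cftr had at most 2 and 13 counts over the libraries of any treated group. St7, 107939 bases downstream, was higher in KO22, N22 and WT (log2 1.29 ± 0.27, 1.11 ± 0.33 and 0.72 ± 0.28, adjusted p 4.74e-05, 0.00329 and 0.0246, edgeR).

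Of the piRNA and transposon defence genes, Asz1 was the one gene of the 26 found that met the silent limit. Of the 23 others tested, 12 were higher and 2 lower in KO22, 13 higher and 2 lower in N22, and 13 higher and 3 lower in WT, with median log2 changes of 0.44, 0.52 and 0.57. Gpat2, a mitochondrial acyltransferase of the same pathway, had 29.4, 34.5 and 32.6 CPM in KO22, N22 and WT with GSK-3484862, against 5.88, 8.35 and 11.2 CPM with DMSO. Tex19.1, which restrains transposons in germ cells and placenta, had 235, 200 and 190 CPM, against 126, 63.4 and 58.8 CPM. Btbd18, a nuclear regulator of piRNA clusters, had 9.21, 9.49 and 9.04 CPM, against 3.78, 2.40 and 3.64 CPM. Each of these 3 passed the test in each genotype (adjusted p at most 4.97e-08, edgeR), and each was already expressed with DMSO. Pld6, another mitochondrial protein of the pathway, was lower in N22 and WT (-0.50 ± 0.14 and -0.77 ± 0.14, adjusted p 0.00227 and 1.89e-06), with -0.26 ± 0.14 (adjusted p 0.135) in KO22.

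Of the 17 gene lists looked at, the imprinted and piRNA lists held 1 of the 11 genes each, and the other 15 held none, among them sperm, meiosis, X-linked cancer-testis, neuronal, placental and immune genes. Those 6 lists held only 26, 3, 72, 15, 13 and 21 of the 28610 silent genes, and the imprinted and piRNA lists 7 and 1. The lists are short and do not include Tcrg-C1, Mgl2 or Shisa6, so nothing is read from these counts.

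Tcrg-C1 and Mgl2 are genes of immune cells. Tcrg-C1 (chromosome 13, 19214103 to 19217024, plus strand) is the constant segment of the T-cell receptor gamma chain, which is joined to variable and joining segments in T cells. It had 2.76 and 3.20 CPM in KO22, 6.27 and 6.54 CPM in N22 and 3.85 and 3.15 CPM in WT libraries with GSK-3484862, against 0 counts in all 6 DMSO libraries. Both N22 libraries were above all others. With a floor of 3 counts over the DMSO libraries the level was at least 160-fold higher over all genotypes. It reached 4.65 CPM per kb of exon, the 52.51 percentile of tested genes. Little else of the receptor locus was counted. The joining segment Trgj1, 3701 bases upstream, had 5 counts in KO22, 16 in N22 and 6 in WT with GSK-3484862, against 0 with DMSO, too few to be tested. No counts in the 12 treated libraries fell in 7 of the 9 other segments named Tcrg, and Tcrg-C2 and Tcrg-V5 had 2 and 1. Amph, which lies 63188 bases upstream and encodes a synaptic vesicle protein, was higher in all 3 genotypes, with 21.3 CPM in KO22, 20.7 in N22 and 24.4 in WT against 8.68, 10.0 and 11.2 CPM with DMSO (adjusted p at most 1.45e-11, edgeR).

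Mgl2 (chromosome 11, 70130329 to 70137550, plus strand) encodes a galactose-type lectin of macrophages and dendritic cells. It had 4.44 and 3.93 CPM in KO22, 3.10 and 3.16 CPM in N22 and 4.12 and 4.13 CPM in WT libraries with GSK-3484862, against 0, 1 and 2 counts in KO22, N22 and WT with DMSO. The ratio over all libraries was 144 (interval 49.0 to 702). Clec10a, the paralogous lectin 18647 bases downstream, was higher in each genotype, at 0.772 CPM in KO22, 0.305 CPM in N22 and 1.03 CPM in WT, against 0 counts in KO22 and N22 and 0.051 CPM in WT with DMSO (adjusted p 6.95e-05, 0.00639 and 0.000112, edgeR). Clec10a could pass the filter on low counts only through libraries with GSK-3484862, so nothing is read from its calls. Asgr2, a liver lectin on the other side, gave other values. It was lower in KO22, at 0.718 CPM against 4.17 CPM with DMSO (log2 -2.54 ± 0.34, adjusted p 3.45e-09), and gave -0.39 ± 0.39 in N22 (adjusted p 0.411) and 0.30 ± 0.35 in WT (adjusted p 0.481). Mgl2 and Clec10a are similar in sequence, so their counts are uncertain.

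Markers of blood cells were measured beside both genes. The delta constant gene Trdc had 0 counts in all 22 libraries, the leukocyte marker Ptprc at most 3 per library, and the macrophage genes Lyz2 and Csf1r at most 1 and 4. Other genes of the list were expressed, among them Cd68, a macrophage marker, at 9.10 to 13.1 CPM with GSK-3484862 against 9.49 to 12.9 CPM with DMSO, and Zap70, a T-cell kinase, at 3.88 to 5.59 against 2.54 to 5.96 CPM. Cd3e, a T-cell receptor subunit, had 0.944 to 1.85 CPM with GSK-3484862 against 2.32 to 5.74 CPM with DMSO, without overlap. The summed level of the 53 immune list genes was 272 to 276 CPM in KO22, 243 to 251 in N22 and 242 to 253 in WT with GSK-3484862, against 268 to 282, 172 to 180 and 166 to 173 CPM with DMSO. Of the 53, 14, 10 and 11 were at 0 in KO22, N22 and WT with GSK-3484862, and 14, 16 and 15 with DMSO. Of the 28 tested, 7, 6 and 9 were higher and 5, 7 and 6 lower in KO22, N22 and WT. The part of these markers in the results was not tested.

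Akr1c18 and Cyp4a12b encode enzymes of steroid and lipid metabolism. Akr1c18 (chromosome 13, 4132615 to 4150654, minus strand) is the hydroxysteroid dehydrogenase that inactivates progesterone, best known in the ovary. It had 1.84 and 2.89 CPM in KO22, 3.46 and 3.92 CPM in N22 and 2.58 and 3.09 CPM in WT libraries with GSK-3484862, against 2, 2 and 3 counts in KO22, N22 and WT with DMSO. N22 was above KO22 and WT without overlap, but neither difference passed edgeR's test (adjusted p 0.127 against KO22 and 0.48 against WT). In these comparisons, groups did not overlap in 59.5% and 49.4% of all genes tested. The ratio of Akr1c18 over all libraries was 47.8 (interval 22.9 to 120).

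Relatives of Akr1c18 were chosen by their shared name. Of 8 other Akr1c genes 4 passed the filter on low counts, and all 4 were higher with GSK-3484862 in each genotype (adjusted p at most 0.00014, edgeR). Of these, Akr1c12, Akr1c21 and Akr1cl had at most 2 counts in any DMSO group. They could pass the filter only through libraries with GSK-3484862, so nothing is read from their calls. Akr1c13 and Akr1c12 lie 40530 and 117518 bases upstream of Akr1c18 on chromosome 13, Akr1c21 lies further along the same cluster, and Akr1cl lies on chromosome 1. Akr1c13 had 1.97 CPM in KO22, 8.01 in N22 and 3.58 in WT, against 0.103, 0.59 and 0.208 CPM with DMSO. Akr1c21 had 0.535, 2.78 and 0.737 CPM, against 0, 0 and 1 counts. Akr1c12 had 0.639, 1.05 and 0.682 CPM and Akr1cl 1.201, 1.25 and 1.91 CPM, against at most 2 counts in any DMSO group. Akr1c14, Akr1c19 and Akr1c6 had 11, 5 and 10 counts over the 12 libraries, and Akr1c20 had none. These genes are similar in sequence, so how fragments were split among them is uncertain.

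With GSK-3484862 the cluster differed between genotypes at Akr1c13 and Akr1c21. Akr1c13 was higher in N22 than in KO22 (log2 difference 2.00 ± 0.26, adjusted p 3.18e-09) and than in WT (1.17 ± 0.24, adjusted p 0.000312), and Akr1c21 likewise (2.35 ± 0.48, adjusted p 9.18e-05, and 1.92 ± 0.46, adjusted p 0.00257), by edgeR. Akr1c13 also had more counts in N22 with DMSO, 22 against 4 in KO22 and 8 in WT. Its log2 changes with GSK-3484862 were 4.11, 3.70 and 4.00 in KO22, N22 and WT, and their difference was not tested. For Akr1c21 in N22 against WT the adjusted p was 0.0528 without the first WT and 0.0558 without the second N22 library with GSK-3484862. Akr1c18 gave 0.62 ± 0.30 (adjusted p 0.127) for N22 over KO22 and 0.39 ± 0.30 (adjusted p 0.48) for N22 over WT. The 620 tested genes of chromosome 13 had a median log2 difference of 0.053 between N22 and KO22 and of 0.008 between N22 and WT, against 0.003 and -0.001 for the other genes.

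**Figure D2:**
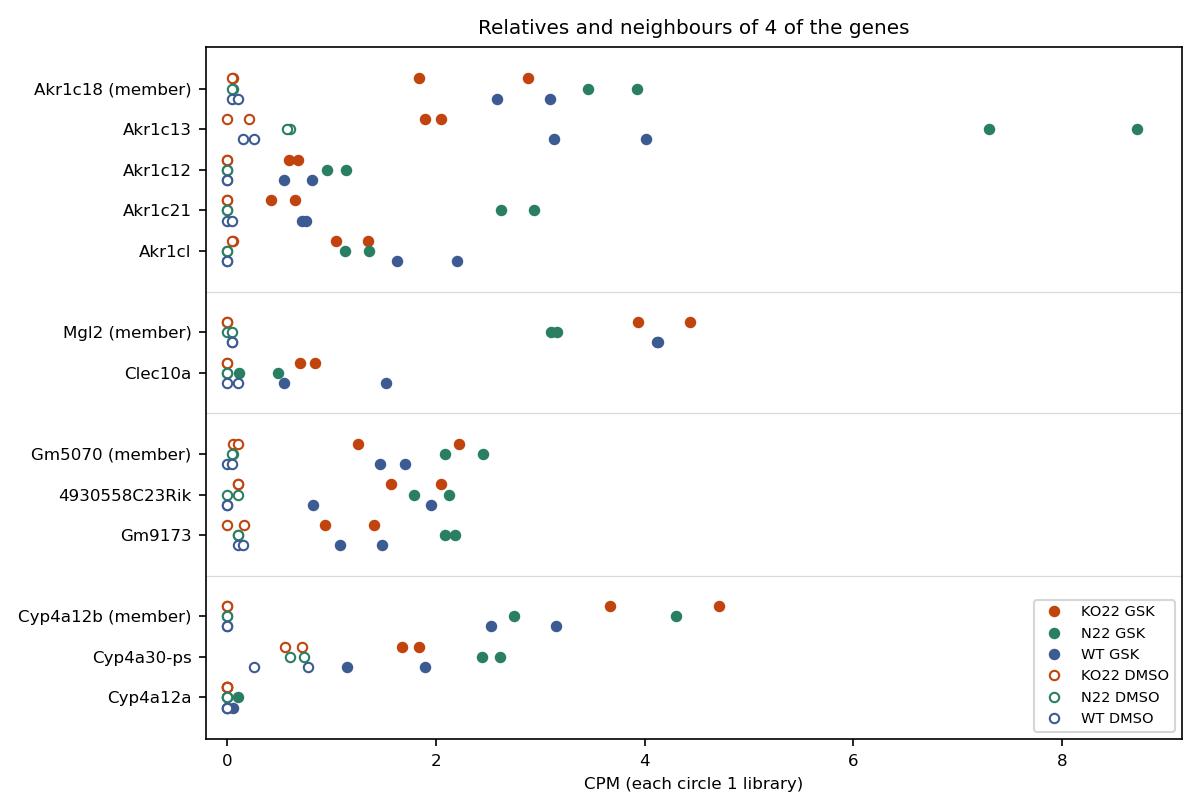
CPM (x axis, 1 circle per library) of 4 of the genes and of their relatives or neighbours (y axis), with GSK-3484862 as filled and DMSO as open circles, coloured by genotype. Akr1c13 lies at 7.30 and 8.71 CPM in N22 with GSK-3484862, above KO22 and WT, while Cyp4a12a stays near 0 beside Cyp4a12b.

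Cyp4a12b (chromosome 4, 115411624 to 115439034, plus strand) encodes a cytochrome P450 of kidney and liver that hydroxylates fatty acids. It had 4.71 and 3.67 CPM in KO22, 2.75 and 4.31 CPM in N22 and 2.53 and 3.15 CPM in WT libraries with GSK-3484862, against 0 counts in all 6 DMSO libraries, so that the level was at least 133-fold higher with a floor of 3 counts. Cyp4a12a, its near-identical copy, had 3 counts in the 12 libraries. The recorded commands do not ask for fragments that map to several places, so both values are uncertain. Of the other Cyp4a genes 1 was tested. This pseudogene, Cyp4a30-ps, 48509 bases upstream, had 1.76, 2.53 and 1.53 CPM in KO22, N22 and WT, against 0.64, 0.67 and 0.517 CPM with DMSO, and was higher in each genotype (adjusted p at most 0.00366, edgeR). Of the 9 remaining genes 6 had no counts and the others, Cyp4a12a included, 1 to 3.

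Shisa6 (chromosome 11, 66211725 to 66525964, minus strand) encodes a transmembrane protein that modulates AMPA-type glutamate receptors at synapses. It had 2.65 and 2.36 CPM in KO22, 1.85 and 1.69 CPM in N22 and 1.82 and 1.74 CPM in WT libraries with GSK-3484862, against 0, 2 and 3 counts with DMSO. KO22 was above N22 and WT without overlap, but neither difference passed edgeR's test (adjusted p 0.339 against N22 and 0.337 against WT). In these comparisons, groups did not overlap in 59.5% and 58.7% of all genes tested. The exons of Shisa6 span 7449 bases, so that 0.271 CPM per kb, the 10.44 percentile of tested genes, was the lowest length-scaled level of the 11. Of 10 relatives 9 were tested, and 5 were higher in KO22, 6 in N22 and 4 in WT, with 1 lower in WT. By DESeq2, 3 were higher in KO22. Shisal2b had 5.73, 4.82 and 4.48 CPM in KO22, N22 and WT, against 0.33, 0.293 and 0.155 CPM with DMSO, above the silent limit in each genotype (adjusted p at most 9.28e-14, edgeR). Shisal2b could pass the filter on low counts only through libraries with GSK-3484862. Shisal2a, the lower one, had 1.09 CPM in WT against 2.35 CPM with DMSO (log2 -1.16 ± 0.37, adjusted p 0.00544, edgeR). DESeq2 did not call it lower, nor did edgeR without the first WT library with GSK-3484862 or the first with DMSO.

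The other 4 genes have no function given in the annotation. Gm5070 (chromosome 3, 95410346 to 95411207, minus strand) had 2.22 and 1.26 CPM in KO22, 2.09 and 2.45 CPM in N22 and 1.71 and 1.47 CPM in WT libraries with GSK-3484862, against 3, 2 and 1 counts with DMSO. The nearest tested gene on each side had a higher CPM too. 4930558C23Rik, 7505 bases downstream, had 1.81, 1.96 and 1.39 CPM in KO22, N22 and WT, against 4, 2 and 0 counts with DMSO. Gm9173, a pseudogene 3819 bases upstream, had 1.18, 2.13 and 1.29 CPM, against 3, 4 and 5 counts. Both were higher in each genotype (adjusted p at most 2.75e-05, edgeR), and both met the DMSO limit but missed the level of 1.5 CPM in at least 1 genotype. With at most 5 counts in any DMSO group, both could pass the filter on low counts only through libraries with GSK-3484862. Nothing is therefore read from their calls. Gm4349, 16464 bases upstream, was not called in any genotype (log2 0.15, -0.19 and 0.01 in KO22, N22 and WT). Arnt, 23181 bases upstream, was lower in N22 and WT (-0.23 and -0.39, adjusted p 2.59e-05 and 2.26e-11, edgeR), with -0.02 in KO22. Prune1 and Mindy1, 128270 and 114180 bases downstream, were lower in each genotype (adjusted p at most 3.88e-13, edgeR). Hormad1, a protein of the meiotic chromosome axis 148470 bases upstream, had 22.3, 30.1 and 21.3 CPM, against 6.41, 3.22 and 3.59 CPM with DMSO (adjusted p at most 3.24e-19, edgeR).

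Gm5702 (chromosome 1, 108376970 to 108379438, minus strand) had 2.71 and 2.05 CPM in KO22, 2.69 and 3.49 CPM in N22 and 3.63 and 3.800 CPM in WT libraries with GSK-3484862, against 3, 4 and 3 counts with DMSO. It was the 1 gene of the 11 with its highest mean in WT. Gm40457 (chromosome 7, 128487945 to 128500187, minus strand) had 2.49 and 1.94 CPM in KO22, 2.45 and 2.24 CPM in N22 and 2.25 and 1.03 CPM in WT, against 5, 1 and 1 counts, and the WT libraries differed by over 2-fold. CAAA01147332.1, on the scaffold JH584295.1 (66 to 1479, minus strand), had 1.68 and 2.36 CPM in KO22, 1.49 and 1.69 CPM in N22 and 1.76 and 1.36 CPM in WT, against 0 counts in all 6 DMSO libraries. With 243 bases of exon it had the highest length-scaled level, 7.09 CPM per kb (60.96 percentile of tested genes). Processed pseudogenes can share reads with their parent genes, so these counts are uncertain.

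The 11 genes together made up 34.7 and 33.5 CPM in KO22, 35.9 and 38.2 CPM in N22 and 33.0 and 31.6 CPM in WT libraries with GSK-3484862, against 0.334 and 0.466 CPM in KO22, 0.328 and 0.317 CPM in N22 and 0.42 and 0.515 CPM in WT libraries with DMSO. Each library with GSK-3484862 held counts of all 11 genes, 583 to 700 in all, and each with DMSO held 6 to 10 counts from 3 to 7 of them. The mean was highest in KO22 for 5 genes, in N22 for 5 and in WT for 1. Markers of 2-cell-like cells, the minority of ES cells in which Dux target genes are expressed, were measured beside them. The summed level of 19 such genes (the Zscan4, Usp17l and Tdpoz families, Tcstv1, Tcstv3 and Zfp352) was 0.262 and 0.271 CPM in the KO22 libraries, 51.2 to 54.4 CPM in N22 and 114 to 115 CPM in WT with GSK-3484862, against at most 0.103 CPM in KO22, 3.88 to 3.90 CPM in N22 and 9.18 to 11.4 CPM in WT with DMSO. With GSK-3484862 14 of the 19 were at 0 in KO22, 3 in N22 and 1 in WT, and with DMSO 17, 8 and 3. These 19 belong to a wider 2-cell embryo list of 47 genes, of which 41 were tested. In KO22 8 were higher and 3 lower with GSK-3484862, in N22 36 and 2, and in WT 38 and 1. The other 28 genes of the list summed to 513 to 517 CPM in KO22, 580 to 584 in N22 and 604 to 629 in WT with GSK-3484862, against 534 to 544, 516 to 537 and 461 to 472 CPM with DMSO. Most of that sum came from Eif1a, Eif1ax and Eif1ad, at 246, 111 and 84.8 CPM in KO22 with GSK-3484862. Without these 3 it was 72.2 to 72.9 CPM in KO22, 150 to 152 in N22 and 183 to 189 in WT, against 29.5 to 31.3, 27.1 to 29.5 and 27.8 to 30.9 CPM with DMSO. The part of these genes in the results was not tested.

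**Figure D3:**
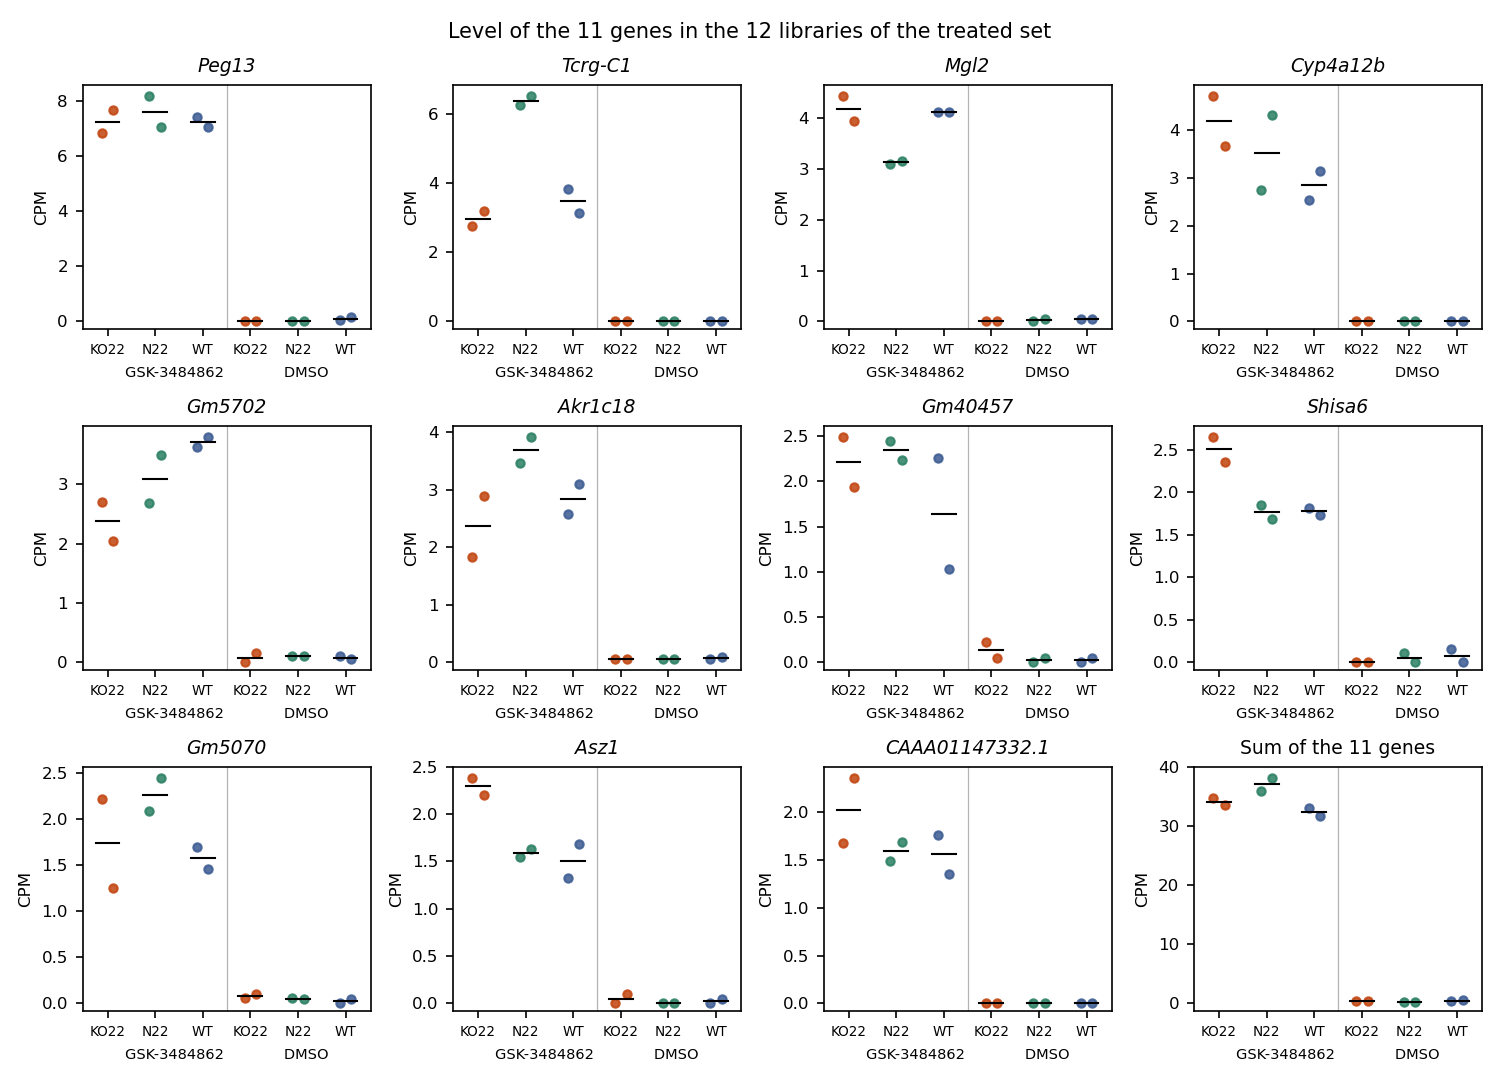
CPM (y axis) of each of the 11 genes, and of their sum, in KO22, N22 and WT with GSK-3484862 (left) and DMSO (right), with 1 point per library and a bar at the mean of 2. The sum lies between 31.6 and 38.2 CPM in the 6 GSK-3484862 libraries and at most at 0.515 CPM with DMSO, a split the choice of genes fixes.

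Genotypes were also compared with GSK-3484862. The choice of the 11 genes used these same group means, since each genotype had to reach 1.5 CPM, and so left out silent genes that were low in 1 genotype, such as Gm2098 (8.47 CPM in KO22, 0.751 in N22 and 8.0 in WT). This narrows the differences that the 11 genes can show, and they passed the filter on low counts through the groups in which they were asked to be high. The shares of all genes given below carry no such requirement, so nothing is read from the counts of the 11 against them. Between KO22 and WT, 0 of the 11 were called at an adjusted p below 0.05 by edgeR, where 22.4% of all 16641 genes were called (12.3% higher and 10.1% lower), and 14.1% of the 2928 genes within the same range of CPM. DESeq2 called 0 as well and gave no adjusted p for 3. At an unadjusted p below 0.05 edgeR had 2, Cyp4a12b higher in KO22 (0.59 ± 0.29, adjusted p 0.134) and Gm5702 lower (-0.61 ± 0.30, adjusted p 0.149). The log2 differences ran from -0.61 to 0.64 with a median of 0.17. In 4 of the 11 the groups did not overlap, against 58.7% of all genes.

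Between N22 and WT 1 gene was called, against 9.65% of all genes (5.05% higher and 4.6% lower) and 5.02% of those in the same range of CPM. This was Tcrg-C1, at 6.40 CPM in N22 and 3.50 CPM in WT, a log2 difference of 0.89 ± 0.25 (95% interval 0.40 to 1.38, adjusted p 0.0117, edgeR, higher in 2 of 2 libraries). The call rests on single libraries. Without the second WT library with GSK-3484862 the adjusted p was 0.173, and without the first or the second N22 library it was 0.0663 or 0.107, while the difference stayed between 0.74 and 1.04 with any library left out. DESeq2 gave none of the 11 genes an adjusted p here, and for Tcrg-C1 an unadjusted p of 0.0188. Groups did not overlap in 5 of the 11, against 49.4% of all genes.

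Between N22 and KO22 the same gene was called and no other, against 24.6% of all genes (11.7% higher and 12.9% lower) and 16.7% of those in the same range of CPM. Tcrg-C1 was at 6.40 CPM in N22 and 2.98 CPM in KO22, a log2 difference of 1.08 ± 0.25 (interval 0.58 to 1.58, adjusted p 0.000558, edgeR). It was called under each of the 17 alternatives (adjusted p 7.24e-05 to 0.0273). Groups did not overlap in 5 of the 11, against 59.5% of all genes. Beside it, Amph gave -0.06 ± 0.10 (adjusted p 0.754) and Stard3nl, on the other side, 0.23 ± 0.07 (adjusted p 0.00448, edgeR).

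The precision of these comparisons is low. The median SE of the 11 genes was 0.31, 0.30 and 0.31 in the 3 comparisons, against 0.12 for all genes tested, at 19 to 146 counts per library. For Peg13, the gene with the most counts, the 95% interval was -0.35 to 0.42 for KO22 over WT, -0.30 to 0.47 for N22 over WT and -0.33 to 0.43 for N22 over KO22. For Asz1, among those with fewest, it was -0.14 to 1.42, -0.72 to 0.92 and -1.32 to 0.24. A gene that missed the threshold may therefore still differ by up to its interval.

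**Figure D4:**
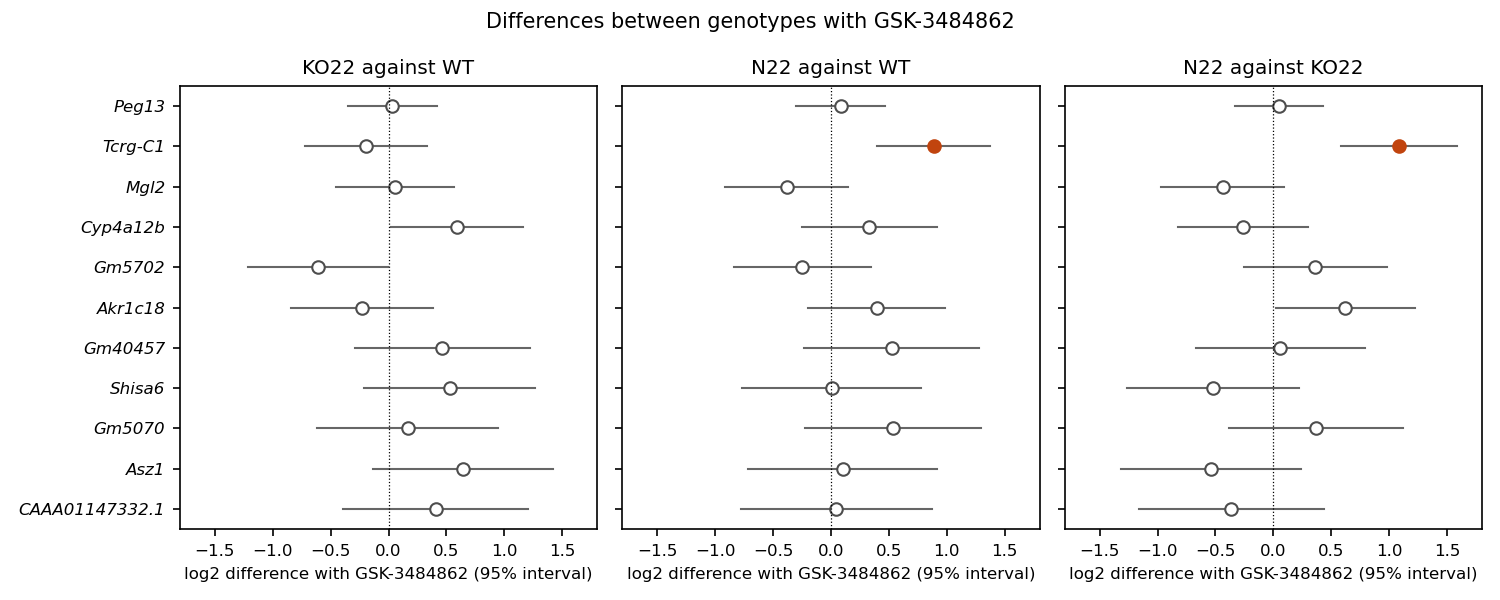
Log2 difference between genotypes with GSK-3484862 (x axis) for the 11 genes (y axis), with 95% intervals. Filled points mark an adjusted p below 0.05, which Tcrg-C1 reached for N22 against WT (0.89) and N22 against KO22 (1.08), and no gene for KO22 against WT.

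In the untreated cells, which the choice of genes did not use, the 11 genes were close to silent. Their summed level was 0.103, 0.789 and 0.509 CPM in the Dux-KO libraries 15, 22 and 52, 0.242 to 0.264 CPM in the 4 Dux n=1 libraries and 1.08, 0.848 and 1.04 CPM in the E14 libraries. All 11 genes were at or under 0.15 CPM on average in Dux-KO and in Dux n=1, and 9 in E14, where Akr1c18 averaged 0.317 ± 0.068 CPM (SD, n = 3) and Shisa6 0.165 ± 0.197 CPM (SD, n = 3). The highest single value was 0.396 CPM, for Akr1c18 in an E14 library. Of the 28610 genes silent with DMSO, 98.65% were at or under the limit in all 3 untreated groups. Gm40457 averaged 0.148 ± 0.174 CPM in Dux-KO (SD, n = 3), and 0.17 CPM without the library labelled Dux-KO 22. No gene of the 11 came near 1.5 CPM in any untreated library.

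The surroundings of the genes were described last. Within 250 kb lay 159 other genes, of which 69 were tested. With GSK-3484862, 15 of the 69 (21.74%) were called and at least 2-fold higher in KO22, 12 (17.39%) in N22 and 13 (18.84%) in WT, against 10.17%, 11.28% and 11.91% of all genes tested. Called neighbours of any size were 23 higher and 14 lower in KO22, 22 higher and 20 lower in N22 and 24 higher and 23 lower in WT, and the median log2 changes of the 69 were 0.04, 0.02 and 0.02. Neighbours that rose most belong to few loci. They are Akr1c13 and Akr1c12, Clec10a beside Mgl2, 4930558C23Rik and Gm9173 beside Gm5070, and, 178060 bases downstream of Mgl2, the lipoxygenase gene Alox12e (0.715, 2.08 and 1.34 CPM in KO22, N22 and WT against 0.109, 0.188 and 0.183 CPM with DMSO, adjusted p at most 0.00365, edgeR). All of these but Akr1c13 had at most 7 counts in any DMSO group. They could pass the filter on low counts only through libraries with GSK-3484862. They are among the neighbours counted as at least 2-fold higher, so nothing is read from those shares against the shares of all genes. Exons of 0 of the 11 genes overlap those of another gene, and strand was not used in counting.

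**Figure D5:**
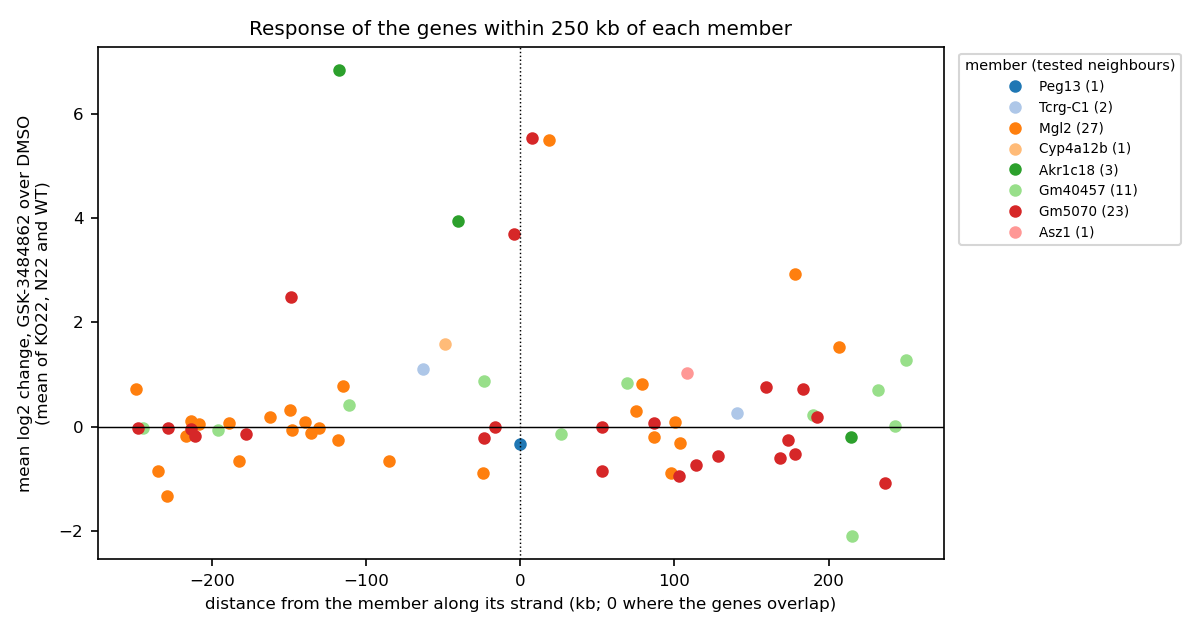
Mean log2 change with GSK-3484862 over DMSO in the 3 genotypes (y axis) of the 69 tested genes within 250 kb of the 11 genes, against distance along the gene's strand (x axis, kb, negative upstream), coloured by gene. Akr1c12 and Akr1c13 (by Akr1c18), Clec10a (by Mgl2), and 4930558C23Rik and Gm9173 (by Gm5070) stand highest.

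Other silent genes reached 1.5 CPM in 1 or 2 genotypes only. In 1 genotype it was N22 for 13 genes, WT for 10 and KO22 for 4, and among the 9 genes of 2 genotypes N22 was included 8 times, KO22 7 times and WT 3 times. Cyp2c55, a P450 of the intestine, missed in WT only (1.73 and 2.68 CPM in KO22 and N22, 1.29 CPM in WT), as did Stxbp5l, a synaptic regulator of secretion (1.92 and 1.61 CPM, and 0.983 CPM). With a level of 1 CPM in place of 1.5, 23 genes would have been chosen, all 11 among them.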

How the data were processed

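RNA sequencing libraries (22, total RNA, VAHTS Universal V6 kit) were grouped by their titles. The authors trimmed reads with fastp 0.23.2 and used HISAT2 2.1.0 and featureCounts 2.0.1, with GRCm38, and DESeq2 1.40.2 is also named, per the submitters' processing notes. Fragments were counted per gene of Ensembl 84, and the counts are deposited raw, per the file headers, with paired reads asked for in 22 of 22 files and multi-mapping reads or strand in 0. Biotypes came from GENCODE M21 (47310 of 47729 IDs matched).

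From these counts, CPM was computed on library totals. Genotypes were compared with edgeR 4.0.16 in R 4.3.3 (quasi-likelihood test, TMM scaling, filterByExpr with a minimum count of 10, robust, 12 treated libraries in 1 fit, 16641 genes, Benjamini-Hochberg adjusted p below 0.05), tested on simulated data. GSK-3484862 against DMSO chose the 11 genes, so for them it is a description without a test, with intervals that cover counting error only and a floor of 3 counts over the group. Other genes near 0 with DMSO could pass the filter only through libraries with GSK-3484862, so nothing is read from calls of them as higher. The 11 genes and all lists were chosen with earlier results of these data known. All 11 genes are named, with relatives by name and neighbours within 250 kb. Alternatives were DESeq2 1.42.0, other size factors, no filter, only the compared groups, a replicate block and each library left out. No 2 libraries were identical. Same-numbered libraries did not deviate together (15 correlations, -0.017 to 0.029).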

Additional observations from a re-analysis of the deposited data

How the results depend on the processing

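The choice of genes depends on its limits. A silent limit of 0.3 CPM gave 30 genes, a level of 1 CPM with GSK-3484862 gave 23, a level of 3 CPM gave 2 (Peg13 and Mgl2) and limits for every library gave 4 (Tcrg-C1, Mgl2, Cyp4a12b and Akr1c18). With 1 library left out the number ran from 10 to 14, and TMM-scaled CPM gave 8, without Gm5070, Asz1 and CAAA01147332.1. The number silent in all 3 untreated groups was 9, 7 with TMM-scaled CPM, and 8 to 9 with 1 library left out.

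Over all genes DESeq2 called fewer, 2207 for KO22 against WT (edgeR 3728, 2602 to 3764 with 1 library left out), 838 for N22 against WT (edgeR 1606, 884 to 1632) and 2571 for N22 against KO22 (edgeR 4087, 3007 to 4102), and the cause was not tested. The number of the 11 genes higher in N22 than in WT was 0 to 1 with 1 library left out. The call for Tcrg-C1 between N22 and KO22 held under all 17 alternatives, and its difference was 0.98 to 1.19 with 1 library left out.

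Of 33 log2 differences 12 changed sign with 1 library left out, none over 0.33 in size to start with. For KO22 over WT these ran from -0.594 to 0.052 for Akr1c18, -0.302 to 0.514 for Gm5070, -0.039 to 0.136 for Mgl2 and -0.056 to 0.11 for Peg13. For N22 over WT they ran from -0.066 to 0.282 for Asz1, -0.133 to 0.242 for CAAA01147332.1, -0.035 to 0.609 for Cyp4a12b, -0.032 to 0.189 for Peg13 and -0.062 to 0.073 for Shisa6. For N22 over KO22 they ran from -0.623 to 0.021 for Cyp4a12b, -0.109 to 0.251 for Gm40457 and -0.061 to 0.159 for Peg13.

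The replicate block, which the pairing check does not call for, changed no call of the 11 genes, with Tcrg-C1 at 1.08 (adjusted p 0.000562, edgeR) for N22 over KO22, 0.89 (adjusted p 0.0119) for N22 over WT and -0.20 for KO22 over WT. At 19 to 146 counts per library, only large differences between genotypes can be seen. Akr1c13 was lower in KO22 than in WT (-0.82, adjusted p 0.0243, edgeR), but not by DESeq2 (adjusted p 0.136) nor without the second WT (0.231), the first KO22 (0.133) or the second KO22 library (0.0835) with GSK-3484862. With a window of 100 kb, chosen after seeing the data, 21 neighbours were tested. Of these, 8, 6 and 7 were called and at least 2-fold higher in KO22, N22 and WT (38.1%, 28.57% and 33.33%). Over all genes tested the shares were 10.17%, 11.28% and 11.91%. Clec10a, 4930558C23Rik and Gm9173 are among these neighbours and could pass the filter on low counts only through libraries with GSK-3484862. Nothing is therefore read from the shares in this window.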
